A study of Strongylocentrotus purpuratus with 8 samples.

Results

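A set of 2565 windows of the purple sea urchin genome carried high CpG methylation in every embryo library and low CpG methylation in adult tube feet. Each window spans 500 bp, and its level is the share of reads at its CpG sites that were called methylated, summed over the sites. Members were chosen by these levels. A member had 4 or more CpG sites, 20 or more reads in each of the 8 libraries, a level of 70% or more in all 6 embryo libraries and a level of 20% or less in both adult libraries. Of 367598 windows with enough sites and reads in every library, 105524 were at 70% or more in all 6 embryo libraries and are called embryo-methylated below. The 2565 members made up 0.698% of the windows tested and 2.43% of the embryo-methylated ones. The embryo-methylated windows otherwise comprised 68437 windows (64.9%) that were at 70% or more in all 8 libraries and 34522 (32.7%) whose adult libraries were neither both at 70% or more nor both at 20% or less.

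In animals, DNA methylation is found mainly at cytosines followed by guanine, where a maintenance methyltransferase copies it onto the new strand after replication. Invertebrate genomes are methylated in a mosaic, with methylated domains, often the bodies of broadly expressed genes, between long unmethylated stretches. Loss of a methyl mark comes about by replication without maintenance or by oxidation of the methylated base by TET enzymes followed by repair. Tube feet are the fluid-filled appendages with which the adult walks, clings and senses, and they hold epithelium, muscle, nerve, connective tissue and coelomocytes.

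Whole-genome bisulfite sequencing (MethylC-seq) was applied to DNA of adult tube feet and of embryos of Strongylocentrotus purpuratus at 24, 48 and 72 hours post fertilisation (hpf), none of them treated, with 2 biological replicates in each of the 4 groups. Bisulfite turns unmethylated cytosine into uracil, so that it is read as thymine, while methylated cytosine is still read as cytosine. The labels give neither the parentage of the embryos, nor the number of animals behind a library, nor whether adults and embryos were related. Age and tissue differ together between adult tube feet and embryos, so the effects of either cannot be told apart. Each library is DNA of many cells of mixed types, so a share of cells without methylation and a partial level in all cells cannot be told apart.

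The libraries held 92803856 and 92088802 reads at CpG sites in adult tube feet, against 75377025 to 126381599 in embryos. On the unmethylated lambda phage DNA added before conversion, 0.266% and 0.233% of reads were called methylated in the adult libraries, against 0.112% to 0.296% in the embryo libraries. The 24 hpf replicate 2 library stood apart in coverage and in pooled level. It listed 89.4% of the CpG sites of members, against 94.3% to 95.5% in the other embryo libraries and 90.9% in both adult libraries. Genome-wide it listed 8652151 CpG sites, against 11623453 to 12366521 in the other embryo libraries. Over all its reads at CpG sites 42.2% were methylated, against 24.2% to 29.8% in the other embryo libraries. Without that library the rule gave 3506 members. Without adult replicate 1 it gave 3601 and without adult replicate 2 it gave 3483, each time with fewer conditions to meet.

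Over the 2565 members, the mean level was 8.39% and 8.05% in the adult libraries, against 88.5% and 89.2% (24 hpf), 85.9% and 87.2% (48 hpf) and 87.4% and 87.0% (72 hpf). These values chose the members and are a description. Members lay at varied distances from the thresholds, and 729 of them also met thresholds of 80% and 10%. The gap between the lowest embryo library and the highest adult library was 71.0 points at the median and 94.7 points at the most, and it was 80 points or more in 439 members (17.1%). In adult tube feet, 174 members (6.78%) had no methylated read in either library and 710 (27.7%) were at 5% or less in both. At the other end, 691 members (26.9%) were over 10% in both adult libraries. The adult replicates differed by 2.91 points in the median member and by 10.9 points at the 95th percentile. The 6 embryo libraries of a member spanned 11.3 points at the median, against 9.47 points in windows methylated in all 8 libraries. The opposite pattern, 20% or less in all embryo libraries and 70% or more in both adult libraries, was met by 123 windows.

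**Figure D1:**
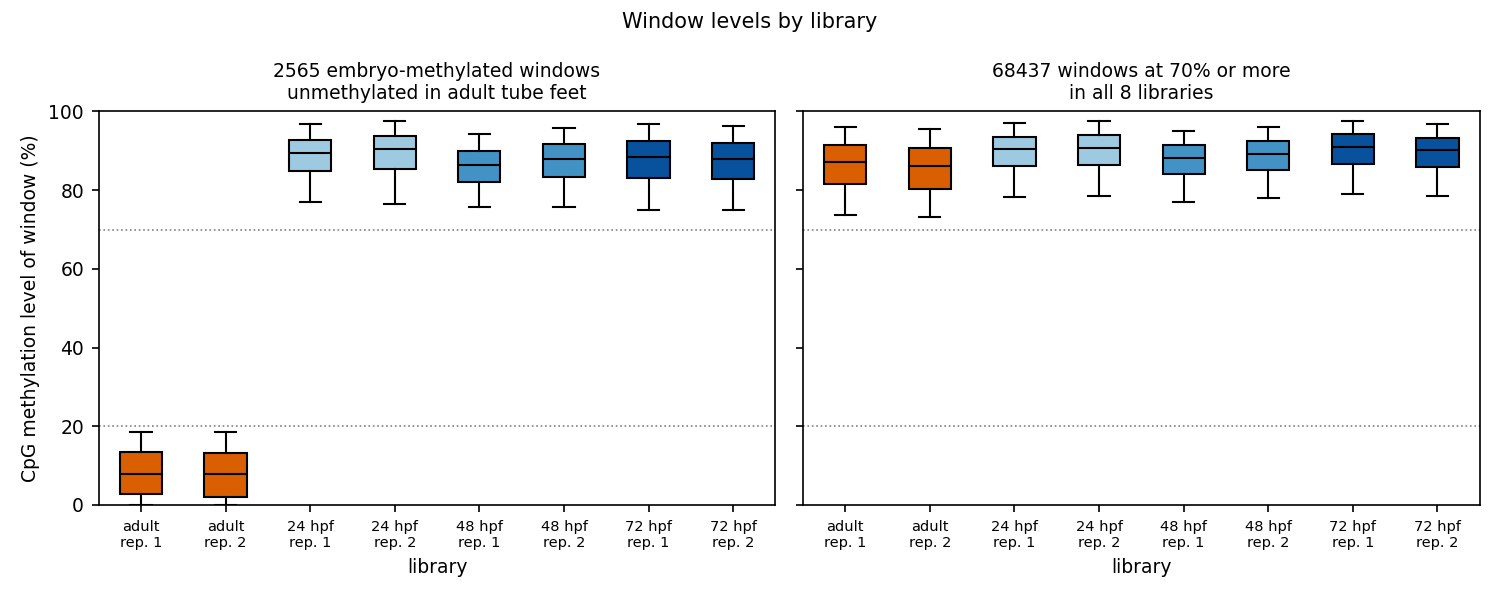
Box plots of the CpG methylation level of windows (y axis, %) in each library (x axis), for the members on the left and for windows methylated in all 8 libraries on the right; boxes run between the quartiles with the median as a line, whiskers mark the 5th and 95th percentiles, and dotted lines mark 20% and 70%. Adult medians of members are 7.87% and 7.81%, while the embryo medians lie between 86.5% and 90.5%.

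The thresholds cut through a continuous range. Among windows that met the other conditions, 397 members had their lowest embryo level between 70% and 75%, and 328 windows just outside had it between 65% and 70%. Likewise 734 members had their highest adult level between 15% and 20%, and 937 windows just outside had it between 20% and 25%. The nearest windows with 50 or more reads in each library show how small the step is. Scaffold211:127001-127500 was a member with 16.7% and 19.2% in adult tube feet and a lowest embryo level of 70%, whereas Scaffold142:550001-550500 had 4.95% and 7.95% in adult tube feet and failed at a lowest embryo level of 69.9%. Scaffold28:184501-185000 was a member at 20.0% and 12.6% in adult tube feet, and Scaffold468:244501-245000 failed at 12.2% and 20.1%.

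All positions are those of the build Spur3.1 used by the files, counted from 1. Gene annotation of that build was not used here, so no gene, exon or promoter is assigned to a window. Of the 1125 members with 50 or more reads in each library, the one with the largest gap was Scaffold57:1302501-1303000, with 13 CpG sites. None of its 180 and 176 adult reads was methylated, which allows levels of up to 1.67% and 1.70%. Its embryo libraries were at 97.4% and 93.0% (24 hpf), 95.9% and 95.8% (48 hpf) and 97.2% and 92.9% (72 hpf). In pooled embryo reads the levels of its 13 sites ran between 82.6% and 97.7% with a median of 95%. Floors and intervals here cover counting error only, and they treat each call at a CpG site as a separate read.

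The member with the next largest gap, Scaffold2268:51501-52000, had 26 CpG sites and was at 0% in 223 and 151 adult reads, against 96.6% and 92.1% (24 hpf), 93.9% and 95.7% (48 hpf) and 94.3% and 98.1% (72 hpf). It lies inside the longest run of adjacent members, Scaffold2268:50501-53500, where 6 windows in a row met the rule over 119 CpG sites. That run averaged 1.05% ± 0.152 in adult tube feet (SD, n = 2) and 92.7% ± 2.42 in embryos (SD, n = 6). Scaffold3677:1-500, at the start of its scaffold, was at 0% in 73 and 86 adult reads, against 93.8% and 92.4% (24 hpf), 92.1% and 94.9% (48 hpf) and 97.8% and 92.6% (72 hpf). Scaffold22:21001-21500, with 35 CpG sites, was at 0.789% and 0% in adult tube feet, against 92.2% and 96.1% (24 hpf), 98.9% and 95.2% (48 hpf) and 98.8% and 96.4% (72 hpf). In all of these windows the adult libraries lay over 90 points below every embryo library.

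The reads that chose the members can also be described by single CpG site. Members held 26951 CpG sites, of which 19698 had 10 or more pooled adult reads. Of these sites 88.2% were at 20% or less and 285 (1.45%) at 50% or more, and those lay in 222 members (8.65%). In embryos, 90.9% of the 24970 sites with 10 or more pooled reads were at 70% or more. Along the window the pooled adult level varied little, between 7.61% for sites 200 to 250 bp from the start and 9.24% and 9.40% in the first and last 50 bp.

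**Figure D2:**
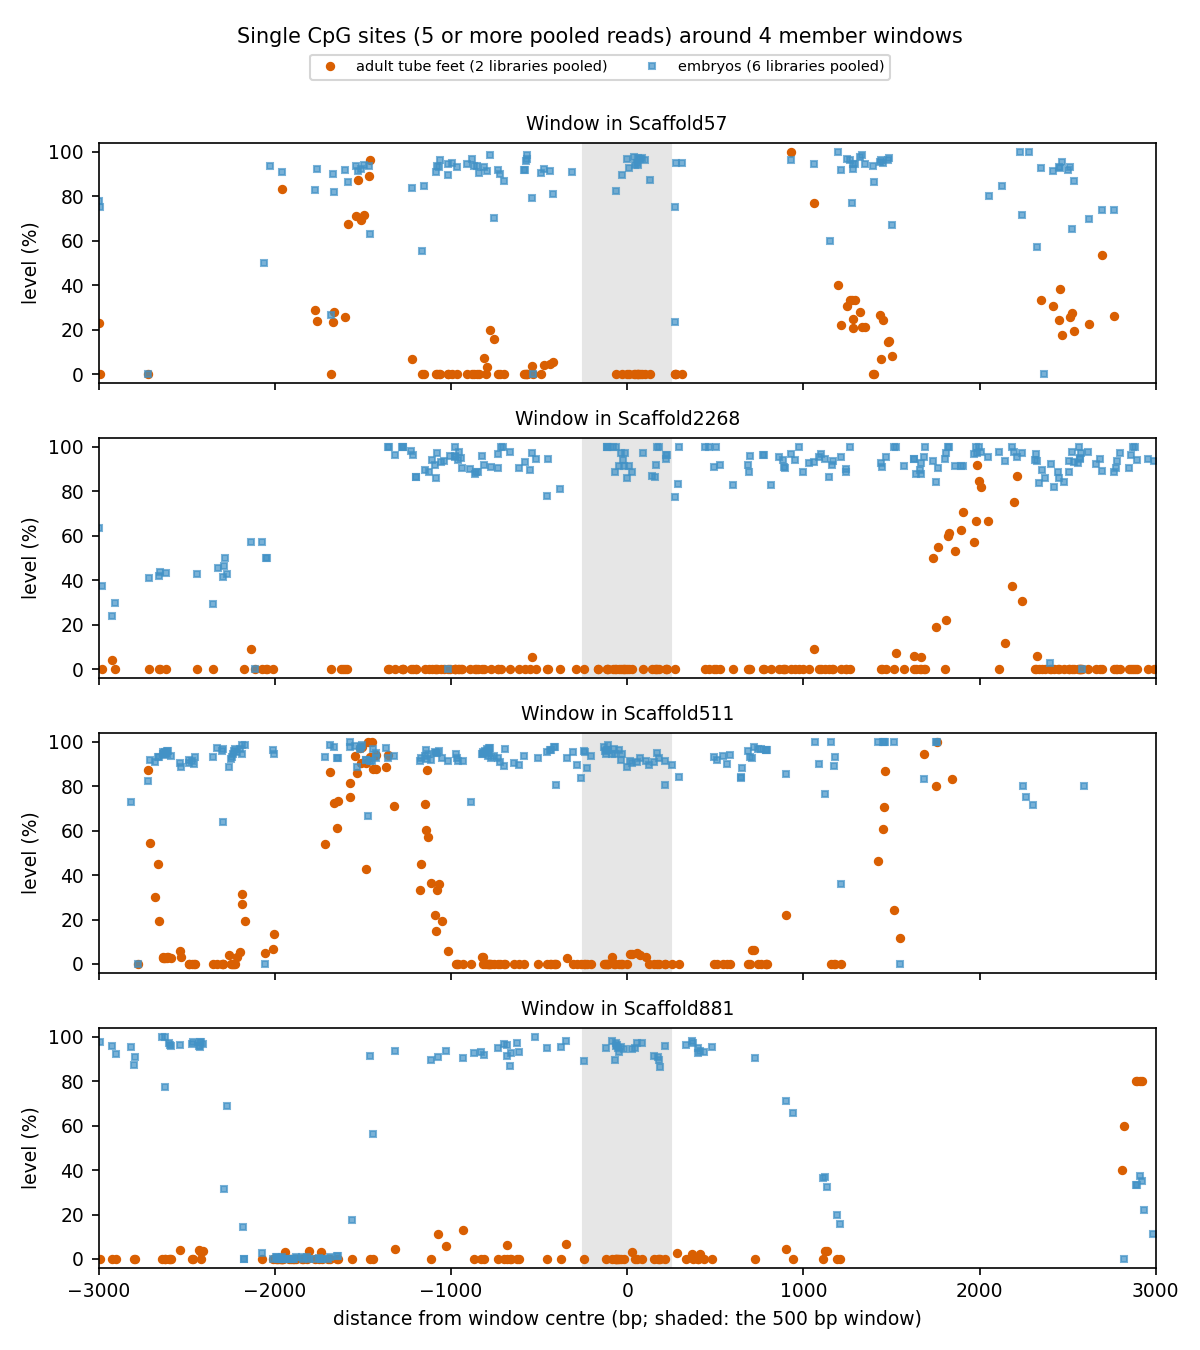
Methylation level (y axis, %) of single CpG sites with 5 or more pooled reads against the distance from the window centre (x axis, bp) for members in Scaffold57, Scaffold2268, Scaffold511 and Scaffold881; circles are adult tube feet (2 libraries pooled), squares are embryos (6 libraries pooled) and the shaded band is the 500 bp window. Adult sites lie at or near 0% in each window while embryo sites lie near the top, and around the window in Scaffold511 adult sites are high again on both sides within the range shown.

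Members had fewer CpG sites than most windows. The median was 9 sites in members, with quartiles of 7 and 13 and a range of 4 to 54. It was 12 sites in windows methylated in all 8 libraries, 10 in embryo-methylated windows between those classes, and 16 in windows at 20% or less in all 8 libraries. Among embryo-methylated windows, members made up 3.61% of those with 4 to 7 sites (779 of 21588), 2.08% of those with 12 to 15 sites and 1.13% of those with 21 to 29 sites. Members with few sites also had fewer reads: the median of the lowest library was 31 reads with 4 to 7 sites and 93 reads with 21 to 29 sites. The share of members also moved with depth, at 2.80% of windows whose lowest library had 20 to 39 reads and 1.83% where it had 80 or more, and the part of depth in the relation with CpG number was not tested. Members with 21 or more sites were the emptier ones. The share at 5% or less in both adult libraries was 25% with 4 to 7 sites and 24.0% with 8 to 11. It was 28.7% with 12 to 15 sites and 33.6% with 16 to 20. Among the 92 members with 21 to 29 sites it was 59.8%, and among the 26 with 30 or more it was 61.5%. The member with the most sites, Scaffold25874:501-1000 with 54, went against this, at 15.2% and 11.7% in adult tube feet and between 72.3% and 90.7% in the embryo libraries.

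Choosing the windows without 1 library and then reading that library gives levels that the rule did not use. With the minimum of 20 reads kept in all 8 libraries, windows chosen without the levels of adult replicate 1 numbered 3489, and in that library their median level was 12%, with quartiles of 4.59% and 20.8%. In it 73.5% of them were at 20% or less and 96.7% at 40% or less, whereas only 3.18% of all embryo-methylated windows were at 20% or less in the same library, where their median was 81.4%. The 3353 windows chosen without adult replicate 2 had a median of 11.1% in it, with 76.5% of them at 20% or less and 97.3% at 40% or less, against 3.31% of all embryo-methylated windows at 20% or less. For each embryo library left out in turn, between 96.5% and 98.2% of the windows chosen from the other 7 libraries stayed at 70% or more, against 98.4% to 98.9% of all windows at 70% or more in the other 5 embryo libraries. The low adult level was thus found again in the adult library not used for the choice.

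Members formed 2297 runs of adjacent windows, of which 2080 (90.6%) were a single window, 185 had 2 windows, 17 had 3, 12 had 4, 2 had 5 and 1 had 6. A neighbouring window can fail because it has too few reads or sites, so window counts give a lower limit of length. Lengths were also measured in 100 bp bins outward from each run until the first bin with an adult level over 20% or an embryo level under 70%. Of the runs, 818 (35.6%) could be followed to such an end on both sides, with a median of 600 bp (quartiles 500 and 900 bp) and a longest span of 3300 bp. At the 2661 bins that ended a run on either side, of 4594 sides, the embryo level had a median of 87.9% and was at 70% or more in 85.2% of them, while the adult median was 45.7% and 22.5% were at 70% or more.

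The longest runs with 50 or more reads in each library had 4 windows, and the 2 of them that came first in the order of the scaffolds are given in full. In Scaffold57:1247001-1249000, adult tube feet averaged 4.20% ± 1.90 (SD, n = 2) and embryos 89.9% ± 2.31 (SD, n = 6) over 49 CpG sites. Its 4 windows had adult means of 1.70%, 0.909%, 11.1% and 0.685%, the third of them with 4.84% in replicate 1 and 17.3% in replicate 2. The window before this run was at 85.7% in adult tube feet and 93.8% in embryos. In Scaffold511:15501-17500, adult tube feet averaged 0.679% ± 0.0848 (SD, n = 2) and embryos 92.8% ± 1.52 (SD, n = 6) over 75 CpG sites. The windows before it, going outward, had adult levels of 19.9% and 82.8%, against 93.6% in embryos for both. Farther out, the adult level was again low, at 9.62% and 8.71% in the next 2 windows, against 92.0% and 91.6% in embryos. The runs of 5 windows, Scaffold639:199001-201500 and Scaffold912:189001-191500, averaged 0.250% and 1.45% in adult tube feet, against 91.2% and 89.1% in embryos.

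Members were spread over 762 scaffolds, 342 of which held a single member, out of 4304 scaffolds with an embryo-methylated window. Of the runs, 859 (37.4%) had another run within 5 kb and 1142 (49.7%) within 10 kb. No matching share of other embryo-methylated windows is given, so these values do not show whether members cluster. The 10 scaffolds with the most members held 11.1% of the members and 3.37% of the embryo-methylated windows. Scaffold57 held 65 members in 53 runs, which is 13.4% of its 486 embryo-methylated windows, and Scaffold592 held 31 of 134 (23.1%). These scaffolds were named after their values were seen. Of the 661 scaffolds with 50 or more embryo-methylated windows, 240 had no member, likewise with no matching count to set it against.

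The DNA around members was also at lower levels in both adult libraries than in every embryo library, at a distance where it was not used by the rule. Adult levels were examined in the second window outward from each run, which starts 500 bp away from it, beyond the length of the sonicated fragments. Of 4594 such places, 1049 (22.8%) held a non-member window with enough sites and reads. Flanking windows were at 47.5% and 47.4% in the adult libraries, against 83.1% and 84.8% (24 hpf), 80.6% and 81.5% (48 hpf) and 81.6% and 81.8% (72 hpf). The difference was -34.8 points (exact permutation test over the 28 ways to draw 2 of 8 libraries, two-sided p = 0.0357, the smallest it can give). After Benjamini-Hochberg adjustment over a family of 3 main permutation tests, it was 0.0536, which did not pass 0.05. Permutation tests at other distances and settings were outside that family. Adult and embryo libraries did not overlap.

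Adult levels are lower than embryo levels in embryo-methylated windows at large, so the flanks were also set against that background. Of the flanks, 798 (76.1%) were embryo-methylated. They averaged 53.1% ± 0.0805 in adult tube feet (SD, n = 2) and 88.6% ± 0.920 in embryos (SD, n = 6), whereas all 102959 embryo-methylated windows that were not members averaged 75.6% in adult tube feet and 88.5% in embryos. Relative to that background the flanks stood at -22.4 points in adult tube feet and at 0.119 points in embryos. The difference between these was -22.6 points (exact permutation test, p = 0.0357, or 0.0536 adjusted). That comparison was chosen once the data were known. The flanks and the background were both selected for high levels in all embryo libraries, which keeps their embryo difference small in advance. The difference and its p-value therefore reflect the adult side. They cannot show whether embryo levels around members match the background. Because members are left out of the flanks, the emptiest adult windows are missing from them. With members kept among the flanks, the difference between adult tube feet and embryos was -41.5 points. That value is a description, because the rule fixes the part of it that comes from members.

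The adult level of embryo-methylated flanks was below that of the background at every distance examined. It was 45.2% in the window next to the run, 53.1% in the second window, 54.1% in the fourth, 57.9% in the tenth, which starts 4.5 kb away, and 59.2% in the twentieth, at 9.5 kb. The matching differences from the background, adult minus embryo, were -30.5, -22.6, -21.7, -17.9 and -16.6 points. These too reflect the adult side, because flanks and background were both selected by their embryo levels. In 100 bp bins, the adult level was 8.70% and 8.34% in the middle of the outermost window of a run, 34.7% and 34.8% at 100 to 200 bp outside, and 41.4% and 41.2% at 400 to 500 bp. From there to 5 kb it stayed within a few points of that value, at 44.1% and 43.6% in the last bin.

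**Figure D3:**
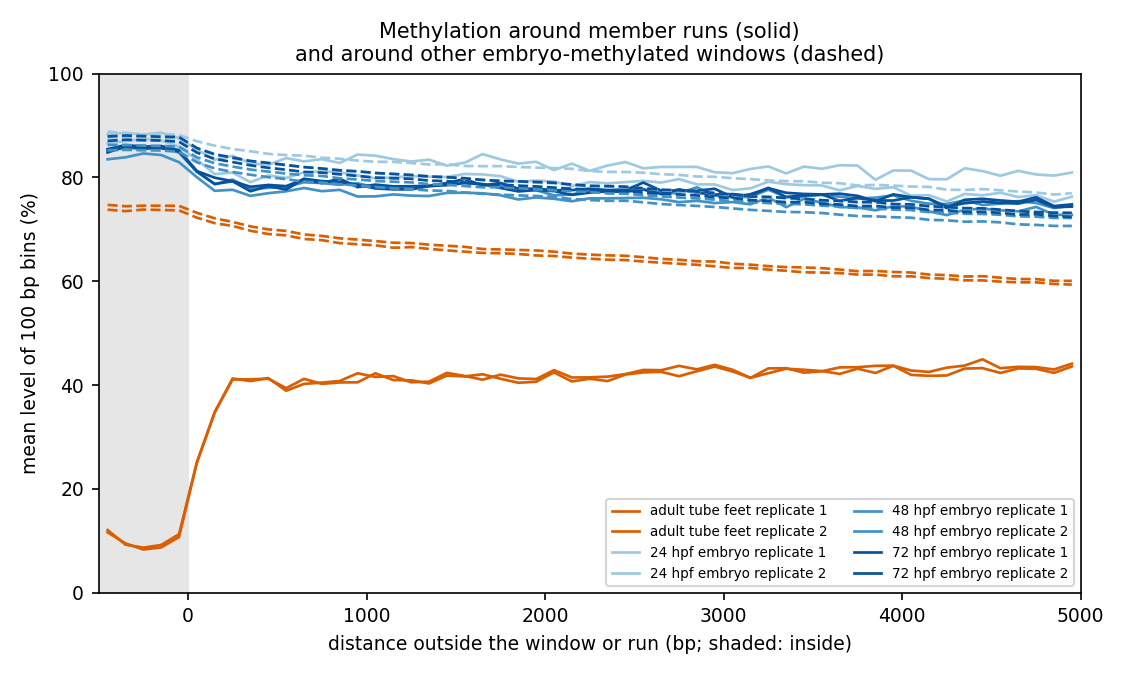
Mean methylation level of 100 bp bins (y axis, %) against the distance outside a run of members or outside another embryo-methylated window (x axis, bp; shaded, the 500 bp inside), with 1 line per library, solid for runs of members and dashed for other embryo-methylated windows. Adult lines drop inside members and level off near 41% outside them, below the dashed adult lines, which are at 71.4% and 70.7% between 200 and 300 bp, while the embryo lines of both sets lie close together.

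Window by window, 723 of the 1049 second flanks (68.9%) were called lower in adult tube feet than in embryos and 3 were called higher, by a quasi-binomial logistic model with Benjamini-Hochberg adjustment over all 367598 windows (adjusted p below 0.05 and a difference of 20 points or more). Of all windows tested, 10.4% were called lower and 1.06% higher. Among embryo-methylated windows the share called lower was 72.2% of the flanks (576 of 798), against 24.3% of those that were not members. The share of all flanks called lower was 80.9% next to the run, 58.5% in the tenth window and 50.5% in the twentieth. All 2565 members were called lower themselves, which the rule all but fixes.

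The share of runs at the border of a domain that was unmethylated in embryos was near that of other windows. Of 896 runs with a tested window next to them, 10 (1.12%, Wilson 95% interval 0.607% to 2.04%) touched a window at 20% or less in all embryo libraries, against 0.995% of embryo-methylated windows that were not members. Within 2 windows the shares were 2.14% of runs and 2.52% of those windows. The members given here from such runs lie on either side of the same unmethylated stretch in Scaffold881. Scaffold881:14001-14500 was at 0% and 0.369% in adult tube feet, against 95.7% and 91.6% (24 hpf), 91.2% and 93.3% (48 hpf) and 97.9% and 95.8% (72 hpf). Scaffold881:11501-12000 was at 2.22% and 0% in adult tube feet, against 91.5% to 97.3% in the embryo libraries, and the window after it was at 0.316% in adult tube feet and 0.429% in embryos. Of 144 runs with tested windows on both sides, 81 (56.3%) lay between embryo-methylated windows and 0 between windows methylated in all 8 libraries. Of 19389 embryo-methylated non-members with tested windows on both sides, these shares were 79.9% and 51.9%. The differences were not tested.

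**Figure D4:**
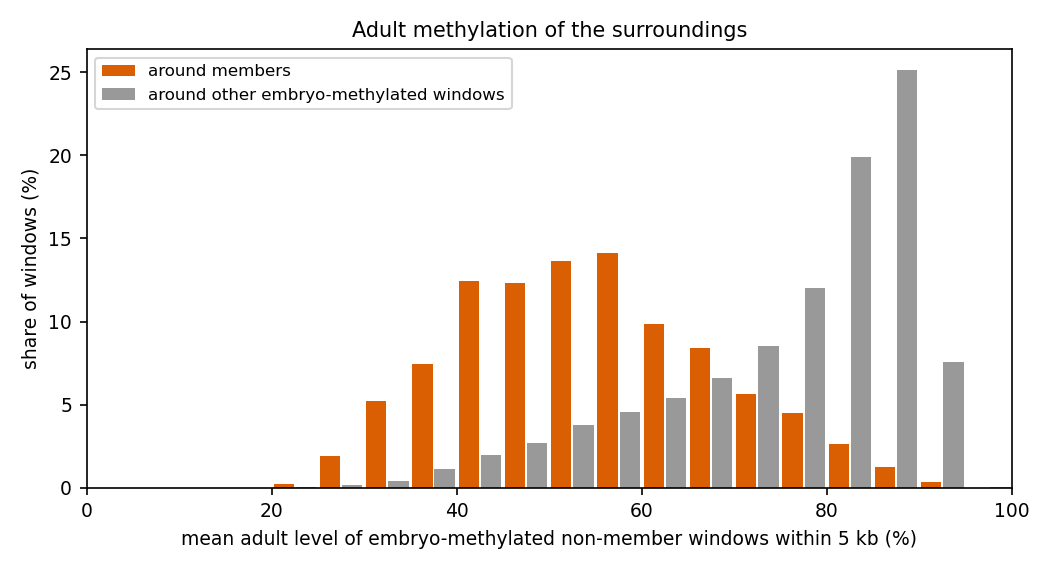
Share of windows (y axis, %) by the mean adult level of the embryo-methylated non-member windows within 5 kb (x axis, %, in steps of 5 points), for 1450 members and for 73098 other embryo-methylated windows with 3 or more such neighbours. Members are most frequent at adult levels between 40% and 60%, and the other windows between 80% and 90%.

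Surroundings within 5 kb gave the same picture as a distribution. Over the embryo-methylated non-member windows within that distance, the mean adult level was 53.7% around the median member (quartiles 44.1% and 64.1%, 1450 members with 3 or more such windows) and 80.8% around other embryo-methylated windows (68.8% and 86.5%). It was between 40% and 70% around 1027 members (70.8%), against 25% of the other windows. It was 70% or more around 208 members (14.3%), against 73.2% of the others. Among these 1450 members, emptiness differed little between the ranges of surroundings. The share at 5% or less in both adult libraries was 22.8% where the surroundings were under 40%. It was 22.8% where they were between 40% and 70%, and 25.5% where they were higher. Median CpG number was 9 in each of these groups. Over all 2565 members the share at 5% or less in both adult libraries was 27.7%. It was thus higher among members with fewer than 3 such windows, which these groups leave out.

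Read depth was compared between members and windows methylated in all 8 libraries with the same number of CpG sites. Members had 0.912 ± 0.0168 times the median reads of such windows in adult tube feet (SD, n = 2) and 0.963 ± 0.0293 times in embryos (SD, n = 6). The difference of -0.0514 did not pass the test (exact permutation test, p = 0.107). It was -0.0599 when 72 hpf replicate 2 was left out (exact permutation test, p = 0.0476). Single members departed further. Adult depth relative to embryos was 2 or more times that of the compared windows in 55 members (2.15%) and 0.5 times or less in 223 (8.71%), against 4.11% and 8.30% of windows methylated in all 8 libraries. Among members with 50 or more reads in each library, the highest ratio was 4.25, in Scaffold1283:106501-107000, with 288 and 255 adult reads, against 55 to 118 reads in the embryo libraries. Its level was 2.08% and 0% in adult tube feet, against 79.5% and 93.2% (24 hpf), 70.6% and 88.9% (48 hpf) and 90.9% and 81.3% (72 hpf). Scaffold2552:25001-25500 had a ratio of 3.24. The lowest was 0.219, in Scaffold2270:89501-90000, with 297 and 148 adult reads, against 757 to 3584 reads in the embryo libraries, and Scaffold1113:211501-212000 had a ratio of 0.236. The number of genome copies behind these ratios was not tested.

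The embryo levels of members are also given by stage, as a description with no test, because the rule used these levels. The level of members minus that of windows methylated in all 8 libraries, weighted to the same CpG numbers, was -0.863 and -0.461 points in the 24 hpf libraries, -1.36 and -1.02 points in those of 48 hpf, and -2.47 and -2.10 points in those of 72 hpf. The means were -0.662 ± 0.284, -1.19 ± 0.239 and -2.28 ± 0.260 points (SD, n = 2 each), and the libraries of different stages did not overlap. A line through the stages had a slope of -0.810 points per 24 hours. Its size depended on the embryo threshold of both sets. With both at 50% or more in all embryo libraries it was -1.62 points, and with both at 80% or more it was -0.389 points.

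**Figure D5:**
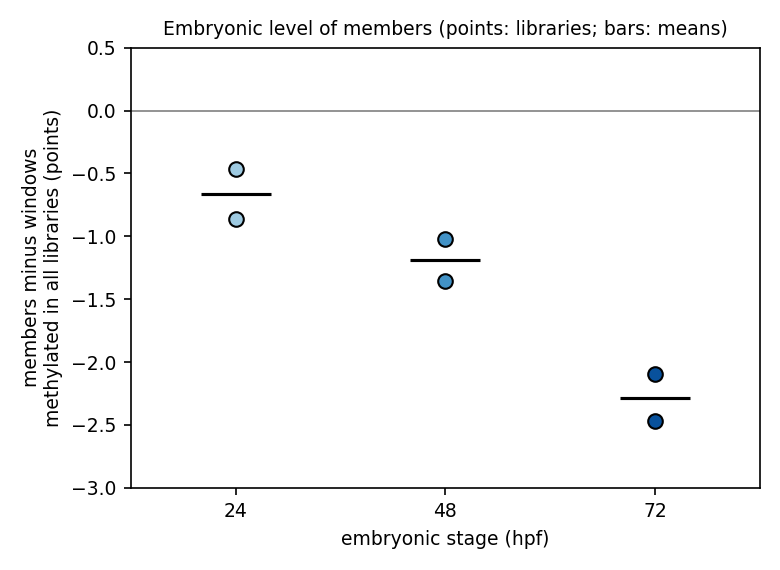
Mean level of members minus that of windows methylated in all 8 libraries at equal CpG number (y axis, percentage points) by embryonic stage (x axis, hpf); points are libraries and bars are means of 2 libraries. The gap is -0.662 points at 24 hpf, -1.19 at 48 hpf and -2.28 at 72 hpf.

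Other embryo-methylated windows are given beside these values, also as a description of levels that placed them in their classes. Between 24 and 72 hpf the mean level changed by -1.66 points in members, by -1.31 points in 8769 non-members with adult means of up to 45%, by -0.653 points in 19760 with adult means over 45% and under 70%, and by 0.0437 points in windows methylated in all 8 libraries. These classes leave out some embryo-methylated windows. Window by window, both 72 hpf libraries were below both 24 hpf libraries in 682 members (26.6%). The same held for 10.7% of all windows tested and 18.0% of embryo-methylated windows. In the 3 non-member classes, in the order above, the shares were 24.5%, 20.1% and 16.2%, so the class nearest to members was close to them. The reverse held for 301 members (11.7%), against 12.5% of all windows tested and 16.1% of embryo-methylated windows. In the 3 non-member classes it held for 12.5%, 14.0% and 17.5%. Members were at 8.39% and 8.05% in adult tube feet and still at 87.4% and 87.0% at 72 hpf.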

How the data were processed

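MethylC-seq libraries of adult tube feet and of embryos at 24, 48 and 72 hpf (2 each) were analysed from their deposited CpG calls. According to the file headers and the submitters' processing notes, the authors made the calls with MethylDackel from deduplicated reads on Spur3.1, with the calls of each CpG merged, and Trimmomatic and Picard were also used. The sources used here give no aligner and no version. Per the file headers, the deposited columns hold the methylation percent and, as raw counts, methylated reads and unmethylated reads. The percent equalled the counts cut down to a whole number in 100% of rows and was not used further.

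Lambda was dropped and counts were summed in windows of 500 bp. Only 29.1% of 1261981 windows with 4 or more CpG sites had 20 reads in each library. The quasi-binomial logistic model had 1 mean per group, a Pearson dispersion moderated with limma 3.58.1 (squeezeVar, trend on log coverage, lower bound 1) in R 4.3.3, and a quasi-likelihood F test. Windows averaging below 2.5% or above 97.5% were kept in the adjustment as not called. Single values were tested by exact permutation of library labels in Python 3.11.15. Benjamini-Hochberg adjustment covered 3 tests: flank level, flank level relative to the background, and read depth of members. Permutation tests at other distances and settings were not adjusted. The p-values of the model rest on the spread between libraries of a group. Permutation p-values place the actual split among all splits, with the embryo stages taken as 1 group. The members, thresholds, tests and named windows were chosen with earlier results of these data known. Windows named by rule had 50 or more reads in each library and came from separate runs. They were the 4 largest gaps, the 2 longest runs (ties by scaffold order) and the most CpG sites. The 2 highest and 2 lowest ratios of adult to embryo depth were also named. So were 2 members whose runs lay next to a window at 20% or less in all libraries, and the nearest window on each side of each threshold. A planned class between windows methylated at both second neighbours had no member with enough reads, and annotation of members was not analysed here.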

Additional observations from a re-analysis of the deposited data

Results flagged for a closer look

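Of 8 measures checked over the 6 embryo libraries, 3 had a library far from the others. Chance alone does this in about 0.05 of such checks. Relative to windows at 20% or less in all 8 libraries with the same number of CpG sites, the read depth of members was 1.89 in 24 hpf replicate 2, against 0.945 to 1.20 in the other embryo libraries. The share of CpG sites of members that were listed was 89.4% in 24 hpf replicate 2, against 94.3% to 95.5% in the others. The share of lambda reads called methylated was 0.112% in 24 hpf replicate 1, against 0.232% to 0.296% in the others. Levels of members and of their flanks had no such library among the embryos.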

How the results depend on the processing

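The number of members followed its thresholds: 1441 at 40 reads per library, 729 at 80% and 10%, 5641 at 60% and 30%, and between 2619 and 3601 with 1 library left out. The flank difference ranged between -35.1 and -34.3 points with 1 library left out, and the difference from the background between -23.1 and -22.1 points. With 1 adult library these were -34.8 and -34.8, and -22.1 and -23.1 points, each at an exact permutation p of 0.143, the smallest possible there. Called flanks numbered 434 at 40 reads (68.8% of 631), 677 with limma, and 624 to 732 with 1 library left out. The labels do not pair the replicate numbers. Deviations of same-numbered libraries correlated by 0.232 between 24 and 48 hpf and by 0.00398 to 0.0837 between other groups, and replicate 1 had the lower stage gap in each stage. With the replicate number as a block 723 flanks were called. The depth difference ranged between -0.0633 and -0.0395, and was -0.0599 without 72 hpf replicate 2, where it passed the threshold. Within 2 windows of a run, 2.14% of runs met a window unmethylated in embryos. At 40 reads, 76.8% of windows chosen without adult replicate 1 and 79.7% without adult replicate 2 stayed at 20% or less, and for 24 hpf replicates 1 and 2, 48 hpf replicate 2 and 72 hpf replicate 2 the shares were 98.7%, 98.7%, 99.0% and 97.4%. The stage slope was -1.62 and -0.389 points with both sets at 50% and 80% or more in embryos, -0.810 with the replicate block, and between -0.937 and -0.691 with 1 library left out. The cause was not tested. Of 184 alternatives over 23 named windows, which include those just outside a threshold, 180 shifted by less than the window's SD over the embryo libraries. That SD includes differences between stages. Of the alternatives, 4 moved further and 0 reversed. At single sites depth is a limit, with a median of 3 to 7 reads per listed site.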
